A study of Musa acuminata AAA Group with 4 samples.

Results

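TIFY proteins of the JAZ group are repressors of the jasmonate response, and 5 of their genes in banana are described here: 3 named TIFY 5A-like (Ma04_g38060, Ma06_g32910 and Ma02_g14820), 1 named TIFY 10B-like (Ma08_g18660) and 1 named TIFY 10A-like (Ma06_g32750). They were chosen by gene ID from the authors' deposited tables of genes that differ between potassium supplies, so the low-over-normal contrast itself picked them and their values in it are a description with no test. The tables hold 5520 genes in all, 4747 for root and 1183 for leaf, of which 410 are in both, and all 5 members are in both. A further 15 genes named TIFY are in at least 1 of the tables, some of them also TIFY 10A-like or 10B-like, so the 5 are a selection from the family and not the whole of it. The samples are roots and leaves of Cavendish banana seedlings (Musa acuminata, AAA group) picked for even height and appearance and kept for 60 days in a low-potassium nutrient solution or, as the control, in complete Hoagland solution. The 4 groups are low-potassium root, normal-potassium root, low-potassium leaf and normal-potassium leaf, with 1 library each. The potassium concentrations, the age of the seedlings and the number of plants behind a library are not given in the labels.

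In Arabidopsis, where the pathway is best known, JAZ proteins bind MYC transcription factors and keep jasmonate genes off. The hormone, as its isoleucine conjugate, brings JAZ proteins together with the F-box receptor COI1, and they are then degraded. JAZ genes are themselves switched on by MYC factors, so their transcripts are a usual readout of an active jasmonate response in wounded or stressed leaves and roots. TIFY 10A and TIFY 10B of Arabidopsis recruit the co-repressor TOPLESS through the adaptor NINJA, whereas TIFY 5A binds TOPLESS directly and lacks the usual degradation signal, so that it is more stable when the hormone is present.

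The annotation bears the label out in part. All 5 members carry a TIFY name from their closest banana protein, with match E-values from 5.79492e-119 for Ma08_g18660 to 2.27199e-55 for Ma06_g32910. A match to the KEGG entry for jasmonate ZIM domain proteins is given for 3 of the 5, and it is weak for Ma04_g38060 (E-value 5e-06), against 8e-120 for Ma08_g18660 and 2e-119 for Ma06_g32750. The other 2 members, Ma06_g32910 and Ma02_g14820, have no KEGG match. The TIFY 5A-like genes are short, with coding lengths of 414, 450 and 456 bases, against 642 bases for the 10A-like and 762 bases for the 10B-like gene. Estimated counts were whole numbers within 0.001 in 19 of the 20 member values, whereas between 33.8% and 38.1% of all listed values of a library were not. Fractions of a fragment can arise when reads that fit several alike genes are divided among them.

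Each library held between 4203693 and 4555253 fragments assigned to genes, as computed from the deposited values. With 1 library a group there is no replicate check, and each fold is the ratio of 2 FPKM values (fragments scaled by gene length and library total) with an exact 95% interval that covers counting error only. In whole roots and leaves, fewer cells that express a gene and less RNA per cell cannot be told apart. Tissue markers could be read only where they are listed. The 3 listed green-tissue markers in root, among them the oxygen-evolving enhancer protein 1 gene (Ma08_g03860), were all higher in low potassium and summed to 81.2 FPKM in low-potassium root and 16.7 FPKM in normal-potassium root. The 7 in leaf were also all higher, with 1037 FPKM in low-potassium leaf and 375 FPKM in normal-potassium leaf. The 2 Casparian strip membrane protein genes listed in root summed to 31.01 FPKM in low-potassium root and 5.11 FPKM in normal-potassium root, no root marker was listed in leaf, and no listed marker was at 0. The part of these markers in the values below was not tested.

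All 5 members were higher in low potassium in root and all 5 in leaf. Among all listed genes 40.4% were higher in root and 67.4% in leaf, and 64.9% of the 410 genes in both tables were higher in both. Summed over the 5 genes, the level was 1710 FPKM in low-potassium root and 199 FPKM in normal-potassium root, which is 8.61-fold higher. In leaf the sum was 441 FPKM in low potassium and 87.2 FPKM in normal potassium, 5.05-fold higher. These sums rest on 3992 fragments in low-potassium root, 560 in normal-potassium root, 1070 in low-potassium leaf and 226 in normal-potassium leaf. The member nearest to the authors' limit of a log2 ratio of 1 was Ma08_g18660 in root, at 1.33, and in leaf it was Ma06_g32750, at 1.70. Genes outside the limit are not analysed here.

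**Figure D1:**
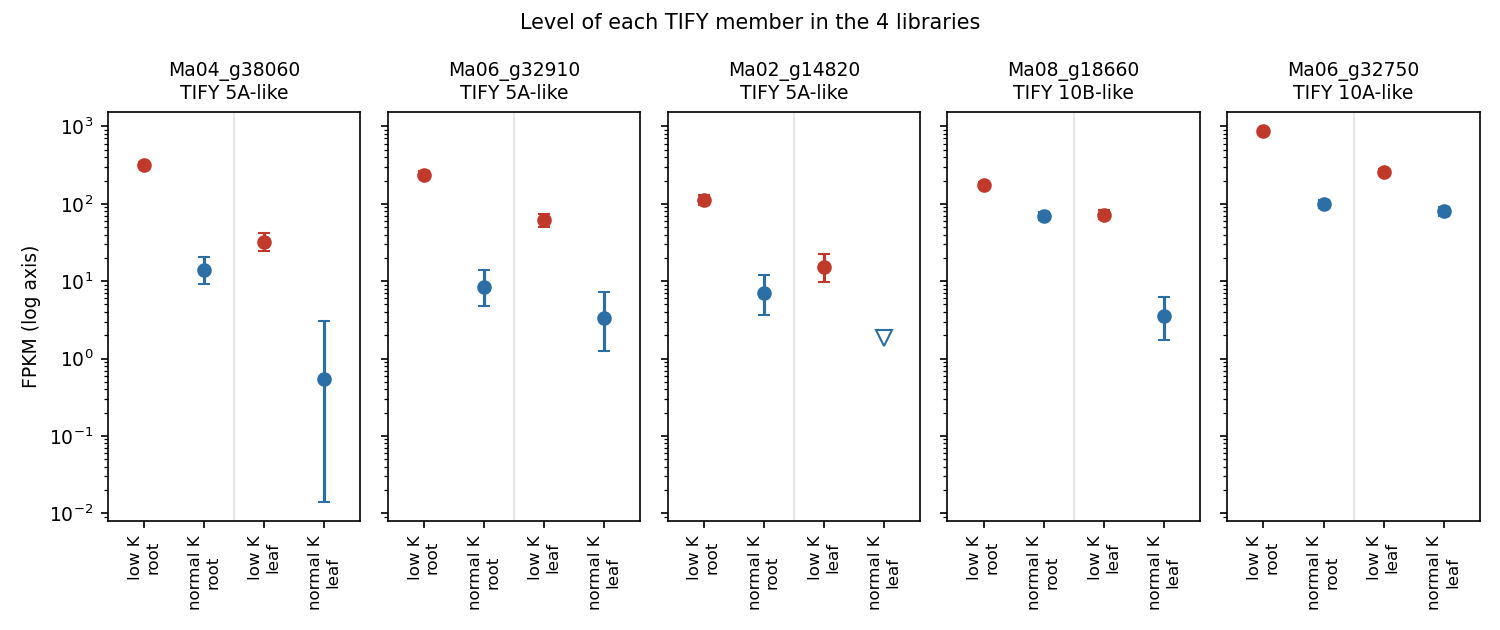
FPKM of each TIFY member (log axis) in the 4 libraries, low potassium in red and normal potassium in blue, with bars for the exact 95% Poisson interval of the count. An open triangle marks the level that 3 fragments would give where no fragment was counted. Every red point lies above the blue point of the same tissue, and the lowest levels are those of normal-potassium leaf.

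The TIFY 5A-like genes had the largest folds in root. Ma04_g38060 measured 322 FPKM (584 fragments) in low-potassium root and 14.1 FPKM (27 fragments) in normal-potassium root, and 32.3 FPKM (57 fragments) in low-potassium leaf and 0.55 FPKM (1 fragment) in normal-potassium leaf. It was 22.9-fold higher in root (interval 15.5 to 35.0) and 58.7-fold higher in leaf (interval 10.1 to 2358). The leaf value hangs on a single fragment, and adding 1 FPKM to both libraries brings it to 21.5-fold, and the order of the leaf and root folds is within counting error.

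Ma06_g32910, also TIFY 5A-like, measured 239 FPKM (426 fragments) in low-potassium root and 8.48 FPKM (16 fragments) in normal-potassium root, and 61.5 FPKM (107 fragments) in low-potassium leaf and 3.37 FPKM (6 fragments) in normal-potassium leaf. Its fold was 28.1 in root (interval 17.1 to 49.7), the highest of the 5 members there, and 18.2 in leaf (interval 8.11 to 50.8). These intervals overlap widely. Low-potassium leaf lay above normal-potassium root for this gene, as it did for all 5 members. Counting intervals of these levels overlapped for Ma02_g14820 (9.68 to 22.5 FPKM in low-potassium leaf, 3.602 to 12.2 FPKM in normal-potassium root). They also overlapped for Ma08_g18660 (63.5 to 82.96 FPKM in low-potassium leaf, 61.1 to 79.5 FPKM in normal-potassium root).

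Ma02_g14820 was the least abundant member in low potassium. It measured 113 FPKM (184 fragments) in low-potassium root and 6.97 FPKM (12 fragments) in normal-potassium root, and was 16.2-fold higher (interval 9.05 to 31.9). In leaf it had 15.1 FPKM (24 fragments) in low potassium and no fragment in normal potassium. Against a floor of 3 fragments in normal-potassium leaf, which is 1.85 FPKM, it was at least 8.18-fold higher, with the 24 fragments taken as exact. The very large log2 ratio of 13.88 in the authors' deposited table comes from the 0.001 entered there in place of 0.

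The other 2 members differed in which tissue had the larger fold. The TIFY 10B-like gene Ma08_g18660 measured 175 FPKM (549.02 fragments) in low-potassium root and 69.8 FPKM (231 fragments) in normal-potassium root, and 72.7 FPKM (222 fragments) in low-potassium leaf and 3.52 FPKM (11 fragments) in normal-potassium leaf. It was 2.51-fold higher in root (interval 2.15 to 2.94) and 20.7-fold higher in leaf (interval 11.3 to 42.0). The root fold was 0.121 of the leaf fold, and the intervals do not meet. Normal-potassium root already held nearly as much of this transcript as low-potassium leaf.

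The TIFY 10A-like gene Ma06_g32750 was the most abundant member in all 4 libraries. It measured 861 FPKM (2249 fragments) in low-potassium root and 99.3 FPKM (274 fragments) in normal-potassium root, and 259 FPKM (660 fragments) in low-potassium leaf and 79.8 FPKM (208 fragments) in normal-potassium leaf. It was 8.67-fold higher in root (interval 7.64 to 9.86) and 3.25-fold higher in leaf (interval 2.77 to 3.81), so its root fold was 2.67 times its leaf fold and these intervals do not meet either. Whether potassium supply acts differently in the 2 tissues was not tested for any member, as that needs replicate libraries.

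**Figure D2:**
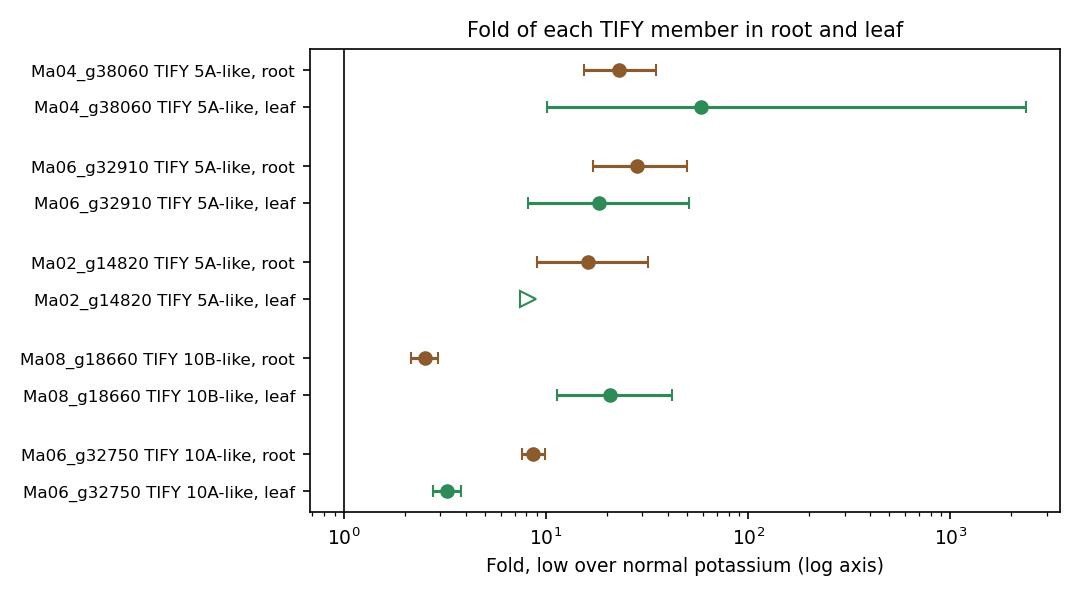
Fold of each TIFY member in low over normal potassium (log axis), in root (brown) and leaf (green), with exact 95% counting intervals. The open triangle is a lower bound. Intervals of the 2 tissues are apart for Ma08_g18660, which is higher by more in leaf, and for Ma06_g32750, which is higher by more in root, and overlap for Ma04_g38060 and Ma06_g32910.

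The interval of the fold lay wholly above 2 for all 5 members in root and for 4 in leaf, where Ma02_g14820 has a bound and no interval. The same held for 24.7% of all listed root genes and 39.3% of all listed leaf genes. Ordered by the difference in log2(FPKM + 1), Ma06_g32910 and Ma04_g38060 were at places 11 and 14 of the 4747 root genes, and Ma02_g14820, Ma06_g32750 and Ma08_g18660 at places 39, 107 and 1264. In leaf Ma04_g38060 was at place 5 of 1183, followed by Ma08_g18660 at 12, Ma02_g14820 at 13, Ma06_g32910 at 17 and Ma06_g32750 at 322. These places describe genes that were picked from the same tables.

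The make-up of the summed level differed between the libraries. In leaf the 10A-like gene Ma06_g32750 held 58.8% of the summed FPKM in low potassium and 91.5% in normal potassium, and the 3 TIFY 5A-like genes held 24.7% in low potassium and 4.49% in normal potassium. In root Ma06_g32750 held 50.3% in low potassium and 50.0% in normal potassium. The 5A-like genes made up 39.4% in low-potassium root and 14.9% in normal-potassium root, while the 10B-like Ma08_g18660 made up 10.3% in low-potassium root and 35.2% in normal-potassium root. Without Ma06_g32750 the summed level of the other 4 genes was 849 FPKM in low-potassium root and 99.4 FPKM in normal-potassium root, 8.54-fold higher. In leaf that sum was 182 FPKM in low potassium and 7.44 FPKM in normal potassium, 24.4-fold higher, against the 5.05-fold of all 5. The 4 genes had only 11, 6, 1 and 0 fragments in normal-potassium leaf. The 24.4-fold and the shares in that library are therefore uncertain, and no interval was computed for them.

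Root levels were above leaf levels for all 5 members at both supplies. FPKM values of root and leaf come from tables deposited separately, each scaled by its own library. In low potassium all 5 were at least 2-fold higher in root than in leaf, from 2.41-fold for Ma08_g18660 (interval 2.06 to 2.83) and 3.32-fold for Ma06_g32750 (interval 3.04 to 3.63) to 9.99-fold for Ma04_g38060 (interval 7.60 to 13.4), with 3.88-fold for Ma06_g32910 and 7.48-fold for Ma02_g14820. Of the 410 genes in both tables, 55.9% were at least 2-fold higher in root in low potassium, and 62.0% in normal potassium. In normal potassium 4 of the 5 reached 2-fold by their ratio or bound. Ma08_g18660 was 19.8-fold higher in root (interval 10.9 to 40.3), and Ma04_g38060 was 25.7-fold higher from the single leaf fragment (interval 4.23 to 1050). Ma02_g14820 was at least 3.77-fold higher with its 12 root fragments taken as exact. Its root interval was 3.602 to 12.2 FPKM against a leaf floor of 1.85 FPKM, so counting error alone could bring it below 2-fold. Ma06_g32910 was 2.52-fold higher with an interval that includes 1 (0.935 to 7.85). Ma06_g32750 differed little between the tissues in normal potassium, at 1.24-fold (interval 1.04 to 1.497).

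In order of level, low-potassium root ran Ma06_g32750, Ma04_g38060, Ma06_g32910, Ma08_g18660 and Ma02_g14820, and normal-potassium root ran Ma06_g32750, Ma08_g18660, Ma04_g38060, Ma06_g32910 and Ma02_g14820. Counting intervals of neighbours were apart throughout low-potassium root, but in normal-potassium root those of Ma04_g38060 (9.30 to 20.5 FPKM), Ma06_g32910 (4.85 to 13.8 FPKM) and Ma02_g14820 (3.602 to 12.2 FPKM) overlapped. In low-potassium leaf the order was Ma06_g32750, Ma08_g18660, Ma06_g32910, Ma04_g38060 and Ma02_g14820, with overlap between Ma08_g18660 (63.5 to 82.96 FPKM) and Ma06_g32910 (50.4 to 74.3 FPKM). In normal-potassium leaf Ma08_g18660 (3.52 FPKM) and Ma06_g32910 (3.37 FPKM) were neighbours that rest on 11 and 6 fragments, so their order is within counting error, as is that of Ma06_g32910, Ma04_g38060 and Ma02_g14820 there. Ma02_g14820 was lowest of the 5 in each library, and Ma06_g32750 highest.

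Most of the further TIFY genes in the tables were also higher in low potassium. Of the 14 further TIFY genes listed in root, 12 were higher and 2 lower in low potassium, with a median log2 fold of 2.38, against -1.20 over all listed root genes. Of the 7 further TIFY genes listed in leaf, 6 were higher and 1 lower, with a median of 2.39, against 1.32 over all listed leaf genes. With the members, 19 TIFY genes are listed in root and 12 in leaf, and 11 are in both tables. All 5 members, which were picked from these tables, are among those 11. Of the further TIFY genes alone, 6 are in both tables, 85.7% of their leaf list and 42.9% of their root list. For all listed genes the shares are 34.7% of the leaf table and 8.64% of the root table. Of those 6, 5 were higher in both tissues and 1 was higher in leaf and lower in root. Over the 410 genes in both tables, 64.9% were higher in both.

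Among the further TIFY genes, Ma03_g02030, a TIFY 10A-like gene that is no member, measured 505 FPKM in low-potassium root and 34.7 FPKM in normal-potassium root (14.5-fold higher, interval 11.8 to 18.1). In leaf it measured 58.5 FPKM in low potassium and 3.52 FPKM in normal potassium (16.6-fold higher, interval 8.51 to 37.1). The 10B-like gene Ma11_g08880 was more abundant than any member in low-potassium leaf, at 342 FPKM, against 33.4 FPKM in normal-potassium leaf (10.2-fold higher), and had 662 FPKM in low-potassium root and 103 FPKM in normal-potassium root (6.44-fold higher). The 10B-like gene Ma09_g13820 had the highest TIFY level in normal-potassium root, with 631 FPKM in low-potassium root and 314 FPKM in normal-potassium root. It was 2.01-fold higher in root (interval 1.87 to 2.16), just inside the authors' limit, and 3.48-fold higher in leaf.

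The 10B-like genes Ma03_g09980 and Ma01_g15260 had similar folds in both tissues, at 4.18 in root and 5.24 in leaf for Ma03_g09980 and at 3.58 in root and 3.64 in leaf for Ma01_g15260. The remaining genes listed as higher were in the root table alone, except Ma03_g05850, which was higher in leaf and lower in root. They include 2 more TIFY 5A genes, Ma07_g01230 at 26.8 FPKM in low-potassium root and 1 FPKM in normal-potassium root (26.8-fold higher, interval 7.05 to 227, from 2 fragments) and Ma09_g26460 (3.96-fold higher, interval 2.06 to 8.22). With the 3 members of that name, which were picked from this contrast, all 5 TIFY 5A genes listed in root were higher. Among all listed root genes 40.4% were higher. The name TIFY 9, which in Arabidopsis belongs to a jasmonate-induced JAZ gene, is carried by 4 listed root genes, of which Ma08_g00580, Ma09_g01070 and Ma06_g22180 were 10.6-fold, 8.15-fold and 6.59-fold higher. The other 2 were the 10A-like Ma02_g23650 (9.93-fold) and the 10B-like Ma05_g24500 (2.41-fold).

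Of the TIFY genes, 3 were listed as lower in a tissue. The TIFY 9-like gene Ma10_g18410 measured 3.01 FPKM (7 fragments) in low-potassium root and 13.4 FPKM (33 fragments) in normal-potassium root, 4.46-fold lower. The TIFY 3B-like gene Ma08_g24540 measured 22.8 FPKM in low-potassium leaf and 52.1 FPKM in normal-potassium leaf, 2.29-fold lower. The 10B-like gene Ma03_g05850 was 2.70-fold lower in root, with 41.2 FPKM in low potassium and 111 FPKM in normal potassium, but 5.54-fold higher in leaf, with 43.0 FPKM in low potassium and 7.75 FPKM in normal potassium.

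**Figure D3:**
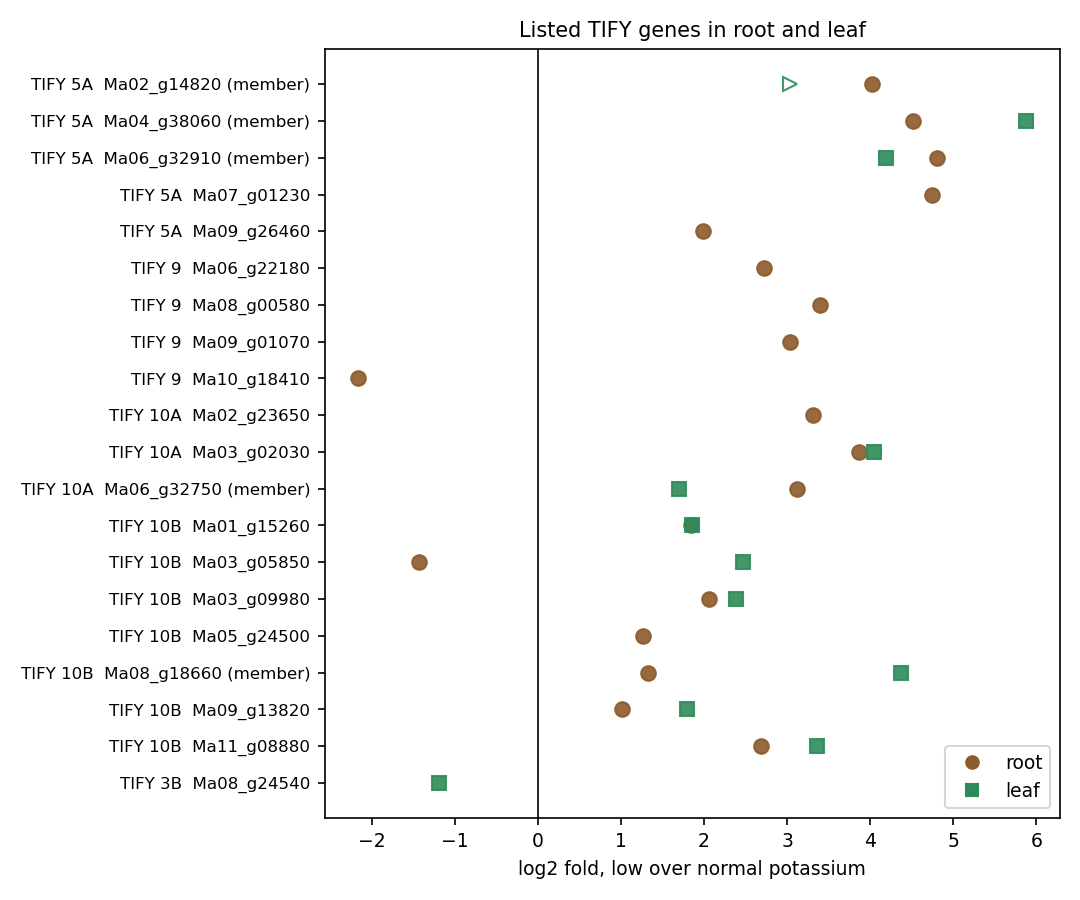
log2 fold in low over normal potassium of the 20 TIFY genes listed in root (brown circles) or leaf (green squares), grouped by TIFY name. The open triangle is a lower bound, and a missing symbol means that the gene is not listed in that tissue. All TIFY 5A and 10A symbols lie above 0, and 1 TIFY 9, 1 TIFY 10B and the TIFY 3B gene have a symbol below it.

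The other parts of the pathway were read from 6 lists set by words in the deposited protein names. The counts below stand beside 40.4% of all listed genes higher in root (median log2 fold -1.20) and 67.4% in leaf (median 1.32). For genes of oxylipin synthesis 10 of 18 were higher in root (median log2 fold 1.15) and 16 of 17 in leaf (median 2.12). Allene oxide synthase and allene oxide cyclase, which lead from fatty acid peroxides to the jasmonate ring, were higher for 3 of 5 listed genes in root and 4 of 4 in leaf. Allene oxide cyclase 3-like (Ma03_g17130) measured 415 FPKM in low-potassium root and 74.4 FPKM in normal-potassium root (5.58-fold higher, interval 4.86 to 6.43). The 2 lower in root include the most abundant of the 5 in normal-potassium root, allene oxide synthase 2-like Ma05_g08520. It measured 76.7 FPKM in low-potassium root and 298 FPKM in normal-potassium root (3.89-fold lower, interval 3.52 to 4.31). Allene oxide cyclase 1-like Ma04_g10360 measured 40.9 FPKM in low-potassium root and 109 FPKM in normal-potassium root (2.67-fold lower, interval 2.23 to 3.22). Allene oxide synthase Ma06_g15030 measured 85 FPKM in low-potassium leaf and 10.02 FPKM in normal-potassium leaf (8.48-fold higher, interval 6.49 to 11.3).

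Among the most abundant genes of that list are 9S-lipoxygenases, which act at another carbon than the 13S-lipoxygenases of jasmonate synthesis. Genes named lipoxygenase 5 are counted with them here, although that name does not state the carbon. Together 4 of 9 were higher in root, near the share of all listed root genes, and 10 of 10 in leaf. That root count mixes genes that went opposite ways. Those named putative lipoxygenase 5 were all higher in root, whereas Ma09_g19140 (3.08-fold) was the only 9S-lipoxygenase that was. The 9S-lipoxygenase Ma06_g26890 was at 252 FPKM in low-potassium root and 958 FPKM in normal-potassium root, 3.799-fold lower. The lipoxygenase 5 genes Ma03_g07770 and Ma09_g15420 were 11.4-fold and 7.57-fold higher in root. In leaf, Ma06_g26850 had 720 FPKM in low potassium and 170 FPKM in normal potassium, Ma06_g26840 had 486 FPKM in low potassium and 73.7 FPKM in normal potassium, and Ma06_g26870 was 8.14-fold higher. Their counts are not whole, so levels of single lipoxygenase copies are uncertain.

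Genes of jasmonate turnover were higher for 11 of 14 in root (median 2.21) and 8 of 8 in leaf (median 2.89). In Arabidopsis the cytochromes P450 94B3 and 94C1 oxidise the active jasmonate conjugate, and 8 of 9 genes with these names were higher in root and 5 of 5 in leaf. The 94C1-like gene Ma10_g11360 measured 211 FPKM in low-potassium root and 12.8 FPKM in normal-potassium root (16.4-fold higher, interval 13.2 to 20.8), and the 94B3-like gene Ma03_g20430 was 28.8-fold higher in root (interval 12.95 to 79.6). In leaf the 94C1-like genes Ma05_g18620 and Ma06_g09120 had folds of 43.9 (interval 7.47 to 1773) and 12.02 (interval 4.39 to 45.9), from 1 and 4 fragments in normal potassium. The 94A1-like gene Ma02_g10440 was 4.34-fold higher in root and 2.49-fold higher in leaf, and the 94B3-like gene Ma02_g00490 was 2.31-fold higher in leaf. The 94A1-like genes were split in root, with 2 higher and 2 lower, while both listed in leaf were higher. Those lower in root were Ma08_g27080 (7.07-fold) and Ma11_g03380 (6.02-fold). The 94A1-like genes entered this list by name, and whether they act on jasmonate was not tested. The root gene with the largest fold of the list, 94C1-like Ma08_g30090, had 21.1 FPKM in low potassium and 0.21 FPKM in normal potassium, which rests on 1.43 estimated fragments (100-fold, interval 17.7 to 3988).

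Transcription factors of the kinds that JAZ proteins bind in Arabidopsis formed the next list. MYC2-, MYC3- and MYC4-like genes and bHLH13-like genes, the last named after a factor that opposes MYC in Arabidopsis, were higher for 5 of 6 in root (median 1.52) and 8 of 8 in leaf (median 2.45). The MYC4-like genes Ma11_g16400 and Ma07_g04810 had folds of 20.1 (interval 8.96 to 55.9) and 7.61 (interval 5.07 to 11.8) in leaf. In root their folds were smaller, at 2.74 (interval 2.03 to 3.74) and 2.98 (interval 2.31 to 3.89). MYC3-like Ma01_g03440 measured 53.0 FPKM in low-potassium leaf and 8.92 FPKM in normal-potassium leaf. The bHLH13-like gene Ma08_g27020 measured 131 FPKM in low-potassium root and 24.5 FPKM in normal-potassium root (5.36-fold higher, interval 4.60 to 6.27) and was 2.94-fold higher in leaf, and Ma01_g07890, of the same name, was 3.37-fold higher in root. The gene of this list that was lower in root, bHLH13-like Ma08_g05210, was 2.13-fold lower (interval 1.48 to 3.09). No gene named for the receptor COI1 and none named TOPLESS is in either table. The 1 listed gene of the NINJA family, AFP3-like Ma09_g06820, had 23.3 FPKM in low-potassium root and 9.73 FPKM in normal-potassium root (2.39-fold higher, interval 1.63 to 3.56). This gene was read by its family name, and whether it acts as the adaptor NINJA does was not tested.

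Genes named after jasmonate-induced defences of other plants, such as proteinase inhibitors and polyphenol oxidases, were higher for 6 of 15 in root (median -1.78) and for 13 of 13 in leaf (median 2.22). The root count is near the 40.4% of all listed root genes, whose median is -1.20, while in leaf 67.4% of all listed genes were higher (median 1.32). That root count mixes kinds that went opposite ways. Polyphenol oxidases were higher for 4 of 5 in root (median 1.71) and Bowman-Birk inhibitors for 2 of 7 (median -2.95). Both cysteine proteinase inhibitors and the threonine dehydratase listed in root were lower. The Bowman-Birk type inhibitor Ma04_g24980, a small protein that blocks digestive proteases, had 547 FPKM in low-potassium root and 1481 FPKM in normal-potassium root (2.71-fold lower), but 406 FPKM in low-potassium leaf and 48.1 FPKM in normal-potassium leaf (8.43-fold higher). The inhibitor Ma05_g10670 had 375 FPKM in low-potassium root and 3440 FPKM in normal-potassium root, and Ma04_g24990 was 24.6-fold lower in root. Polyphenol oxidase Ma07_g03650 was 21.3-fold higher in root (interval 6.93 to 106), from 2.81 estimated fragments in normal potassium. In leaf, cysteine proteinase inhibitor Ma03_g19290 was 2.25-fold higher, inhibitor Ma08_g21500 was 20.7-fold higher and cysteine proteinase inhibitor Ma02_g01810 was 9.35-fold higher. Over the 6 lists together, 33 of 54 genes were higher in root (median 1.42) and 45 of 46 in leaf (median 2.45), against 40.4% of all listed genes in root and 67.4% in leaf.

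**Figure D4:**
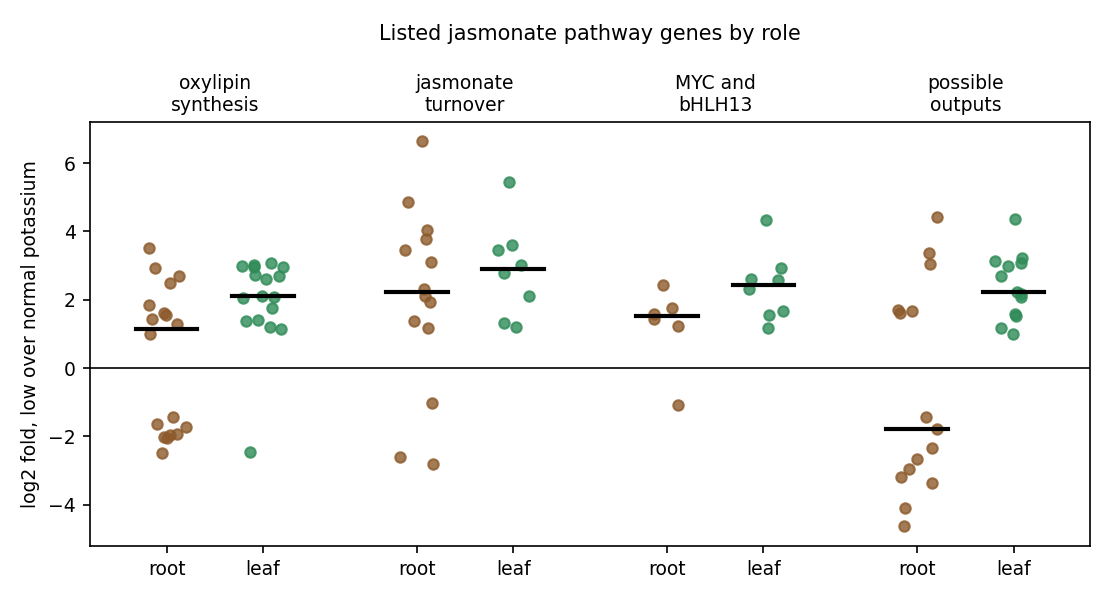
log2 fold in low over normal potassium of each listed gene of 4 jasmonate lists in root (brown) and leaf (green). Horizontal bars are medians, and 1 gene of the possible outputs in leaf is drawn at its lower bound. In leaf 1 point lies below 0, whereas in root the possible outputs have a median below 0 (-1.78), as have all listed root genes (-1.20).

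Likeness of pattern was measured as the distance between log2(FPKM + 1) values centred on each gene's mean over the 4 libraries, among the 410 genes in both tables. Pairs of members lay between 0.630 (Ma04_g38060 and Ma02_g14820) and 3.12 (Ma04_g38060 and Ma06_g32750) apart. Nearest to Ma04_g38060, at a distance of 0.324, was the bHLH92-like transcription factor gene Ma03_g30510, with 327 FPKM in low-potassium root, 15.8 FPKM in normal-potassium root, 26.3 FPKM in low-potassium leaf and 0.58 FPKM in normal-potassium leaf. Next came Ma02_g14820 and the 10A-like Ma03_g02030 (0.699). Nearest to Ma02_g14820 were Ma03_g02030 (0.242), the ethylene-responsive factor ERF109-like Ma10_g30050 (0.386) and Ma04_g38060.

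Ma06_g32910, Ma08_g18660 and Ma06_g32750 had no TIFY gene among their nearest 3. The nearest to Ma06_g32910 were NAC domain protein 2-like Ma06_g27170 (0.886), MYB44-like Ma03_g29510 (1.03) and the Bowman-Birk inhibitor Ma08_g21500 (1.25). The nearest to Ma08_g18660 were the uncharacterised Ma04_g06860 (0.765), patatin-like Ma03_g21180 (0.909) and allene oxide synthase 1-like Ma04_g38880 (0.920), which had 143 FPKM in low-potassium root, 52.3 FPKM in normal-potassium root, 37.1 FPKM in low-potassium leaf and 4.73 FPKM in normal-potassium leaf. The nearest to Ma06_g32750 were NAC domain protein 68-like Ma04_g02450 (0.379), the ubiquitin ligase MBR1-like Ma10_g05330 (0.489) and serpin-ZXA-like Ma11_g19590 (0.554). The median distance to all 410 genes was between 2.36 for Ma06_g32750 and 3.89 for Ma04_g38060. Ma06_g32750 lay farther than its own median from Ma04_g38060 (3.12), Ma08_g18660 (2.62) and Ma02_g14820 (2.56), and nearer to Ma06_g32910 (1.95). With 4 libraries these distances are a description.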

How the data were processed

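Polyadenylated RNA was sequenced, and the steps given do not mark the strand, per the labels' protocols, so antisense reads cannot be told apart. The authors deposited, for each tissue, estimated counts of fragments per gene, FPKM values, a log2 ratio, a p-value and an FDR (a q-value), per the file headers. No source used here names the aligner, counting program, genome build or test. No listed root gene has an FDR above 0.000987 and no listed leaf gene one above 0.000995, and every absolute log2 ratio is at least 1, so only genes past these limits could be read. A deposited table on potassium transport holds no TIFY gene and was not used. Samples were grouped by their titles, with 1 library a group, so no test was run. Folds are ratios of deposited FPKM values with exact (Clopper-Pearson) 95% intervals of the rounded counts. Where a count was 0, the bound uses a floor of 3 counts in that library. Library totals came from the line of count over FPKM against gene length, fitted where counts exceeded 100 and FPKM exceeded 5, without genes that strayed by over 1%. On data simulated with Poisson counts and with FPKM built from the formula of the line, the line recovered the known total. The intervals held their level there for genes with 10 or more counts in both libraries. Intervals that rest on fewer counts were not covered, nor was spread between plants, so this checks the computation only. The given lengths are taken as coding lengths, since 95.4% in the root table and 95.3% in the leaf table divide by 3. Members and lists were chosen with earlier results of these data known. Words of a list that end in a number had to end the number in the protein name too. Besides all TIFY genes, the text names the 2 genes of each list and tissue with the highest mean FPKM, the 2 with the largest fold among those with 10 or more counts in a library, and the 3 genes nearest each member. A few further list genes are named, mostly where genes of a list went both ways. Alternatives were depth-scaled counts, pseudocounts of 1 and 0.5 and a count minimum of 10. Protein and promoter sequences were not used here. Python 3.11.15, pandas 2.3.3, NumPy 2.4.6, SciPy 1.17.1 and matplotlib 3.10.9 were used.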

Additional observations from a re-analysis of the deposited data

Results flagged for a closer look

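For 5 of the genes named here the fold was on opposite sides of 1 in root and leaf, and whether the tissues differ was not tested. TIFY 10B-like Ma03_g05850 had a fold of 0.370 in root (interval 0.300 to 0.454) and 5.54 in leaf (interval 3.57 to 8.96). Bowman-Birk inhibitor Ma04_g24980 had a fold of 0.369 in root and 8.43 in leaf, and inhibitor Ma05_g10670 had 0.109 in root and 2.999 in leaf. For the 9S-lipoxygenase Ma06_g26890 the fold was 0.263 in root and 4.34 in leaf. 12-oxophytodienoate reductase 5 (Ma02_g22720) was the reverse case, with 2.01 in root and 0.183 in leaf. The counts of Ma02_g22720, Ma05_g10670 and Ma06_g26890 are not whole.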

How the results depend on the processing

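All 56 alternative values over 16 results kept their direction, no fold with a counting interval left it, and no count moved by over 1.5 times. Those results are the 10 member folds and the counts of members, further TIFY genes and jasmonate list genes listed as higher. The kept direction is no independent check, because a pseudocount added to both libraries cannot reverse a fold. Every listed gene had 10 or more counts in a library, so the count minimum removed none. Depth-scaled counts draw on the same fragments as FPKM. The alternatives thus show only how far sizes moved. The values that moved most were in leaf, where Ma04_g38060 was 58.7-fold higher by FPKM, 58.3-fold by depth-scaled counts, 31.2-fold with a pseudocount of 0.5 and 21.5-fold with 1. For Ma02_g14820 in leaf the bound of 8.18 compares with 31.2-fold and 16.1-fold at those pseudocounts. Depth limits the leaf folds, since 4 of the members had 11 or fewer fragments in normal-potassium leaf. With 1 library a group no replicate could be left out. No paired analysis was possible because each group has 1 library.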

Other observations

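Within the synthesis list, 12 genes are in both tables, 70.6% of the leaf list and 66.7% of the root list, against 34.7% of the leaf table and 8.64% of the root table for all listed genes. Of these, 7 were higher in both tissues, 4 were higher in leaf and lower in root, and 1 was lower in leaf and higher in root. That last gene, 12-oxophytodienoate reductase 5 (Ma02_g22720), named after enzymes that reduce a jasmonate precursor or related compounds, measured 23.5 FPKM in low-potassium root and 11.7 FPKM in normal-potassium root (2.01-fold higher, interval 1.44 to 2.83). In leaf it measured 2.62 FPKM in low potassium and 14.3 FPKM in normal potassium (5.45-fold lower, interval 2.92 to 11.1). The 1 listed gene with 13S-lipoxygenase in its name, Ma03_g11520, measured 59.5 FPKM in low-potassium leaf and 9.17 FPKM in normal-potassium leaf (6.49-fold higher, interval 5.28 to 8.04). For turnover, all 7 genes in both tables were higher in both tissues, and for the transcription factors all 4 were. Over all 410 genes in both tables, 266 were higher in both, 33 lower in both, 81 higher in leaf and lower in root and 30 lower in leaf and higher in root. These genes were chosen after their values were seen.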
